A study of Homo sapiens with 23 samples.

Results

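The 8 genes described here encode the human ligands of NKG2D: MICA, MICB, ULBP1, ULBP2, ULBP3, RAET1E, RAET1G and RAET1L. They were chosen by name through their NCBI Gene IDs, with earlier results of these data known. All 8 of 8 were found among the 21658 genes of the table. RNA-seq was performed on 4 established ovarian cancer cell lines, Kuramochi, OVSAHO, OV-90 and EFO-21, each as a parental line and as a prexasertib-resistant line. Prexasertib is a small molecule inhibitor of the checkpoint kinases CHK1 and CHK2, which slow replication when DNA is damaged. The resistant lines had been raised from the parental lines by slowly escalating the drug concentration over a long period, and the sources used here give neither the final concentration, nor whether drug was present at harvest, nor how many derivations were made for each line. The table holds 23 libraries, labelled as biological replicates, with 3 in each group except for OV-90 parental, which has 2. The labels name no other treatment, and p-values measure the spread between these cultures.

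NKG2D is an activating receptor of natural killer cells and of many T cells, encoded by KLRK1, and it signals through the adaptor DAP10, encoded by HCST. Its ligands are distant relatives of MHC class I molecules that healthy cells display sparsely, and they are known to be induced by DNA damage signalling through the ATM and ATR kinases, by heat shock and by viral infection. MICA and MICB are transmembrane proteins encoded in the MHC on 6p21, whereas the ULBP and RAET1 genes form a separate cluster on 6q25. ULBP1, ULBP2, ULBP3 and RAET1L (also called ULBP6) are held in the membrane by a glycosylphosphatidylinositol (GPI) anchor, while RAET1E (ULBP4) and RAET1G (ULBP5) also have forms with a transmembrane segment. Tumour cells can release several of these proteins from the surface through metalloproteases such as ADAM10, ADAM17 and MMP14. Only RNA was measured here, so surface protein and shed protein are not described.

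In GRCh37 coordinates the 6 ULBP and RAET1 genes lay within 185.9 kb of chromosome 6. From the centromeric side these were RAET1E (chr6:150204315-150219249, minus strand), RAET1G (chr6:150238014-150244257, minus), ULBP2 (chr6:150263150-150270371, plus), ULBP1 (chr6:150285079-150294851, plus), RAET1L (chr6:150339470-150346668, minus) and ULBP3 (chr6:150382189-150390257, minus). MICA (chr6:31367561-31383092, plus) and MICB (chr6:31462658-31478901, plus) spanned 111.3 kb of the MHC. All are protein-coding, and each value summarises reads over the exons of the whole gene. Some of these genes are close copies of each other. The coding sequences of ULBP2 and RAET1L were 97.6% identical, those of ULBP2 and RAET1G 94.3%, those of RAET1G and RAET1L 94.0% and those of MICA and MICB 92.6%. Of all 75-base stretches of the annotated transcripts, 20.8% for ULBP2, 19.6% for RAET1L and 5.5% for RAET1G also occurred in another gene, chiefly in one another, and at 150 bases, the stated read length, these shares were 4.3%, 4.3% and 0%. For RAET1E the shares were 13.4% at 75 bases and 12.1% at 150 bases, both with an annotated gene that is not a member. For ULBP3 they were 6.2% and 0.8%, and for ULBP1 3.1% and 0%. For MICA and MICB they were 0% at both lengths. How the authors assigned reads that match more than 1 gene is not given in the sources used here. The separate values of ULBP2, RAET1L, RAET1G, RAET1E, ULBP3 and ULBP1 are therefore uncertain to that extent.

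Values are the authors' quantile-normalised log2 expression values, with no read counts, so the depth of each library is unknown. The number of exon features behind a value differed between members, from 2 for ULBP1, 4 for RAET1G and 5 for RAET1L to 10 for ULBP2, 10 for RAET1E and 13 for ULBP3. MICA and MICB stood apart, as their values are plain means of 66 and 58 log2 exon values, although the annotation used here holds 22 and 11 distinct exons for them. A value at or below the 10th percentile of its library, which lay between 1.70 and 1.87, is said to be in the lowest 10%, and a difference that starts there is not a measured fold change. Libraries are named by the number that their column carries. A gene was called higher or lower at a limma p under 0.05 after Benjamini-Hochberg adjustment over all 21658 genes together with a difference of at least 2-fold, which is 1 on the log2 scale.

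Several facts of the whole series bear on what follows. Resistant libraries correlated with their own parental libraries (Pearson's r across genes, which are not independent replicates) between 0.889 and 0.960, and with the parental libraries of other lines between 0.624 and 0.807, so no library went against its line. The 2 OV-90 parental libraries spread most, with a median SD over genes of 0.26 against 0.11 to 0.22 in the other groups. The median of 6 epithelial markers ranged from 7.29 to 11.8 over the parental libraries. In Kuramochi it went from 7.29 to 7.65 in parental libraries to 3.93 to 4.15 in resistant ones, and in OVSAHO from 9.16 to 9.23 to 7.60 to 7.64. The median of 8 Müllerian and ovarian cancer markers was 7.91 to 8.04 in Kuramochi parental libraries and 3.89 to 3.99 in resistant ones, where 3 of the 8 lay in the lowest 10% of every library. In OV-90 that median was low in both states, at 1.75 to 2.24. Library medians of markers of NK and T cells, of myeloid cells and of fibroblasts and endothelium lay between 0.00 and 6.32, but single markers moved with the states. In OVSAHO, 3 of 7 fibroblast and endothelial markers were called higher, among them the proteoglycan genes LUM (difference of 4.73) and DCN (4.22), and 1 lower. In Kuramochi, 3 were called higher and 3 lower, among them CDH5 (2.87) and DCN (−2.52), and of 7 myeloid markers CD68 (2.79) and ITGAM (2.70) were called higher. In OVSAHO 3 of the 7 myeloid markers were called lower, TYROBP (−3.9), LYZ (−3.56) and CD68 (−1.0). In EFO-21 1 was called higher and 2 lower. The OV-90 library median of fibroblast and endothelial markers was 5.77 to 6.17 in parental and 3.31 to 3.58 in resistant libraries. Only PECAM1 of that list was called there (−2.89). In OV-90 parental and resistant libraries the means of LUM were 12.76 and 12.10 and those of LYZ 12.06 and 12.43. Others were low, such as PDGFRB (2.25 and 1.88) and ITGAM (2.27 and 2.09). The part of these shifts in the results on the ligands was not tested.

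The promoters of the 4 members that differed most between Kuramochi states are shown first, followed by that of ULBP3, a neighbour whose Kuramochi groups overlapped. Each runs 5′ to 3′ from 250 bases before to 50 bases after the start site that RefSeq gives on GRCh38.p14, with matches to the searched motifs in capitals.
ULBP1, chr6:149963693-149963992, plus strand: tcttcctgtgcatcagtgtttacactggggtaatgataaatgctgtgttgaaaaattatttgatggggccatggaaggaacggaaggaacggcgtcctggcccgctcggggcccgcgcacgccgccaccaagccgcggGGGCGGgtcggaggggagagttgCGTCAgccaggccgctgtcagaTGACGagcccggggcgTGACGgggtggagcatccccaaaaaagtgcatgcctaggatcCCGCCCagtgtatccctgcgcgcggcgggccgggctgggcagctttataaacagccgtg
ULBP2, chr6:149941764-149942063, plus strand: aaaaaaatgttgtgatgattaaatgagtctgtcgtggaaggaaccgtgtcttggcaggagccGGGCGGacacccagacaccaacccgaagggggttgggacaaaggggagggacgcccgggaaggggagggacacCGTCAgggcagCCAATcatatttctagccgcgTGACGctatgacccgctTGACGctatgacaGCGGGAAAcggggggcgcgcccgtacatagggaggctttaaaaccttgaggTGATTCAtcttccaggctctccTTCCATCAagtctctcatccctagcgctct
RAET1G, chr6:149923072-149923371, minus strand: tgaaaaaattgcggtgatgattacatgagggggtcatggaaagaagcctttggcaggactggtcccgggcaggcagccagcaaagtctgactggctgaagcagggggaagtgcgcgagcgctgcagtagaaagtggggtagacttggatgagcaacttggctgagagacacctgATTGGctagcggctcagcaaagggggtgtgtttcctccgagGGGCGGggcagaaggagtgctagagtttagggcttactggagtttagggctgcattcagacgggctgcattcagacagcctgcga
RAET1L, chr6:150025483-150025782, minus strand: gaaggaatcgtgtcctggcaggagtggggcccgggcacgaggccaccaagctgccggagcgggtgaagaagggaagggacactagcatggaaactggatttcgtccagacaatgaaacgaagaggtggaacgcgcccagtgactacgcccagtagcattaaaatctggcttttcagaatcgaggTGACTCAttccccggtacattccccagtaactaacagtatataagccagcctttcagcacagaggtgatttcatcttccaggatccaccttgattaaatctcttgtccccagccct
ULBP3, chr6:150069072-150069371, minus strand: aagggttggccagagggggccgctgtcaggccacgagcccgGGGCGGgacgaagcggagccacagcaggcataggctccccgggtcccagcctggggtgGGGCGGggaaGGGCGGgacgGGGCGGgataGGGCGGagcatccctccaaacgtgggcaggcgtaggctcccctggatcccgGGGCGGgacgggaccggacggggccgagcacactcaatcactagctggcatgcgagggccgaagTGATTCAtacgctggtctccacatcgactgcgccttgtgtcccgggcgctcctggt

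All 8 members matched an entry of the promoter table, RAET1E with 3 start sites. Motifs were searched on both strands as the GC box GGGCGG (found in 45.0% of all 35116 promoters of this length), the CCAAT box CCAAT (34.6%), the AP-1 site TGANTCA (7.71%), the cAMP response element core TGACG (24.6%), the full element TGACGTCA, which holds that core on both strands (1.85%), the heat shock element GAANNTTC (6.77%), the ATF4 composite element TGATGNAA (3.62%), E2F as TTTGGCGC, TTTCGCGC, TTTCCCGC or TTTGCCGC (3.31%), and the NF-κB site (0.658%). The ULBP1 window held 2 GC boxes and 3 cAMP response element cores. That of ULBP2 held 1 GC box, 1 CCAAT box, 3 such cores, an E2F match on the minus strand 53 bases before the start, an AP-1 match across the start and an ATF4 composite match after it. RAET1L had a single AP-1 match, 66 bases before the start, RAET1G a GC box and a CCAAT box, and ULBP3 an AP-1 match and 6 GC boxes. MICA and MICB each held the heat shock element GAATTTTC together with a GC box and CCAAT matches, and their windows were 87.0% identical over 94.7% of their length. No motif of this list was shared by all 4 members that rose in Kuramochi. These are matches of letters, not measured binding sites.

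At baseline, the parental lines differed in every ligand gene, and the order of the lines was not the same for all of them. EFO-21 had the highest parental mean for MICB, ULBP2, RAET1E, RAET1G and RAET1L, OV-90 for MICA and ULBP1, and Kuramochi for ULBP3. OVSAHO had the lowest parental mean for 6 members, while Kuramochi was lowest for ULBP1 and OV-90 for ULBP3. The plot of every library shows these levels.

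**Figure D1:**
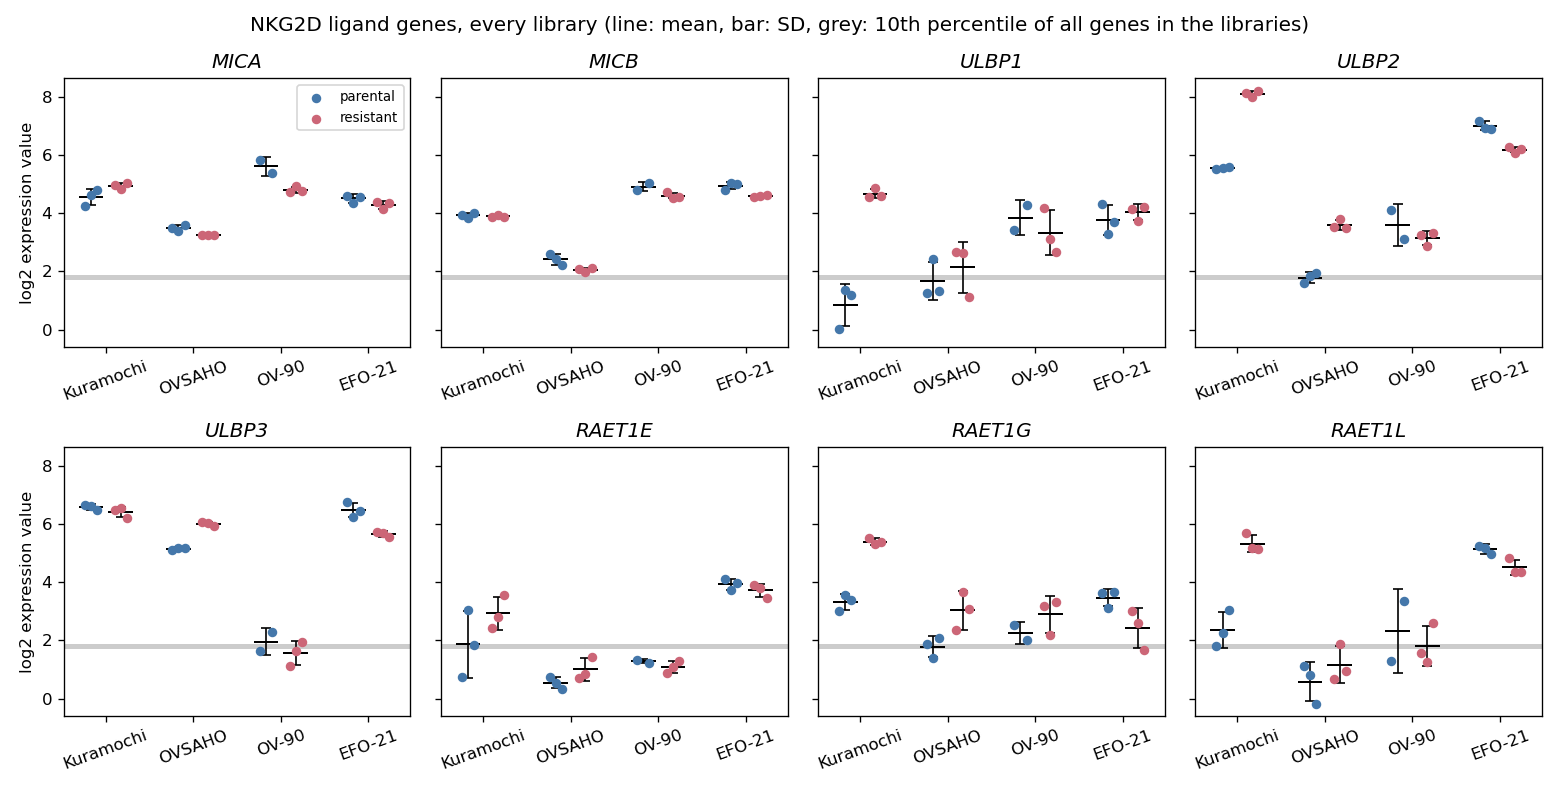
Log2 expression value (y axis) of each NKG2D ligand gene in each library of the 4 lines (x axis), with parental libraries in blue and resistant libraries in red, the mean as a line, the SD as a bar and the 10th percentile of the libraries in grey. In Kuramochi the resistant libraries lie above the parental ones for MICA, ULBP1, ULBP2, RAET1G and RAET1L, and OV-90 lies near the grey band for ULBP3 and RAET1E.

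ULBP2 separated the parental lines most clearly. Its values were 7.18, 6.95 and 6.90 in the EFO-21 parental libraries, 5.52, 5.56 and 5.60 in Kuramochi, 4.12 and 3.10 in OV-90, and 1.60, 1.83 and 1.96 in OVSAHO. No line overlapped another, and all 6 of the 6 pairs of lines were called, with 1.45 log2 units between EFO-21 and Kuramochi (adjusted p = 0.000416), 1.95 between Kuramochi and OV-90 (adjusted p = 0.000111) and 1.82 between OV-90 and OVSAHO (adjusted p = 0.000177, limma).

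ULBP3 was set apart by OV-90. The parental libraries read 6.67, 6.62 and 6.47 in Kuramochi, 6.75, 6.25 and 6.46 in EFO-21, 5.11, 5.18 and 5.19 in OVSAHO, and 1.63 and 2.29 in OV-90. OV-90 lay 3.20 log2 units below OVSAHO (adjusted p = 4.34e-07), with 1 of its 2 libraries in the lowest 10%. Kuramochi and EFO-21 were not separated, with a difference of 0.10 (95% interval −0.32 to 0.53, adjusted p = 0.646, limma).

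ULBP1, which has the values with the fewest exon features, was near the bottom in Kuramochi parental cells, at 0.01, 1.36 and 1.18. It read 1.25, 2.44 and 1.34 in OVSAHO, 3.44 and 4.27 in OV-90, and 4.31, 3.28 and 3.70 in EFO-21. OV-90 and EFO-21 formed the upper pair, 0.09 apart (adjusted p = 0.890), and OVSAHO and Kuramochi the lower pair, 0.83 apart (adjusted p = 0.160), while EFO-21 exceeded OVSAHO by 2.09 (adjusted p = 0.00297, limma).

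Among the RAET1 genes, EFO-21 had the highest mean of each. RAET1L read 5.26, 5.19 and 4.96 in EFO-21 parental libraries, 1.81, 2.27 and 3.04 in Kuramochi, 1.29 and 3.34 in OV-90, and 1.11, 0.82 and −0.19 in OVSAHO. EFO-21 exceeded Kuramochi by 2.77 log2 units (adjusted p = 0.00119), whereas Kuramochi and OV-90 differed by 0.06 (adjusted p = 0.939, limma). RAET1E ranged from 3.73 to 4.10 in EFO-21 and from 0.34 to 3.04 in the other parental libraries, and EFO-21 exceeded Kuramochi by 2.06 (adjusted p = 0.00342, limma). All OV-90 and OVSAHO parental libraries were in the lowest 10% for RAET1E. RAET1G varied less between lines, with group means of 3.47 in EFO-21, 3.32 in Kuramochi, 2.27 in OV-90 and 1.78 in OVSAHO, and only the step from Kuramochi to OV-90 was called among neighbours in this order (1.05, adjusted p = 0.0145, limma).

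MICA and MICB were lowest in OVSAHO. MICA read 5.85 and 5.37 in OV-90, 4.26, 4.63 and 4.80 in Kuramochi, 4.61, 4.36 and 4.57 in EFO-21, and 3.49, 3.39 and 3.61 in OVSAHO. OV-90 exceeded Kuramochi by 1.04 (adjusted p = 0.00178), Kuramochi and EFO-21 differed by 0.05 (adjusted p = 0.829) and EFO-21 exceeded OVSAHO by 1.02 (adjusted p = 0.00103, limma). MICB read 4.81 to 5.05 in EFO-21, 4.80 and 5.03 in OV-90, 3.93, 3.83 and 4.02 in Kuramochi, and 2.60, 2.43 and 2.22 in OVSAHO. Its upper pair of lines differed by 0.04 (adjusted p = 0.879), and Kuramochi exceeded OVSAHO by 1.51 (adjusted p = 3.30e-05, limma).

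Over the 6 pairs of parental lines, 37 of 48 tests of members were called. Calls between lines were common among all genes. All 8 members were called between OVSAHO and EFO-21, all lower in OVSAHO, where 44.2% of all genes were called. Between Kuramochi and OVSAHO 7 were called, all higher in Kuramochi (37.6% of all genes). The other pairs gave 6 for OVSAHO and OV-90 (48.1%), 6 for OV-90 and EFO-21 (50.2%), 5 for Kuramochi and OV-90 (47.0%) and 5 for Kuramochi and EFO-21 (41.3%).

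The main comparison asked how the ligands differed between prexasertib-resistant and parental cells of the same line. In Kuramochi, ULBP1, ULBP2, RAET1G and RAET1L rose, while MICA, MICB, ULBP3 and RAET1E were not called. In OVSAHO, ULBP2 and RAET1G rose. In OV-90 and EFO-21 no member was called, and 7 of 8 members had negative differences in each. MICA and MICB were not called in any line.

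**Figure D2:**
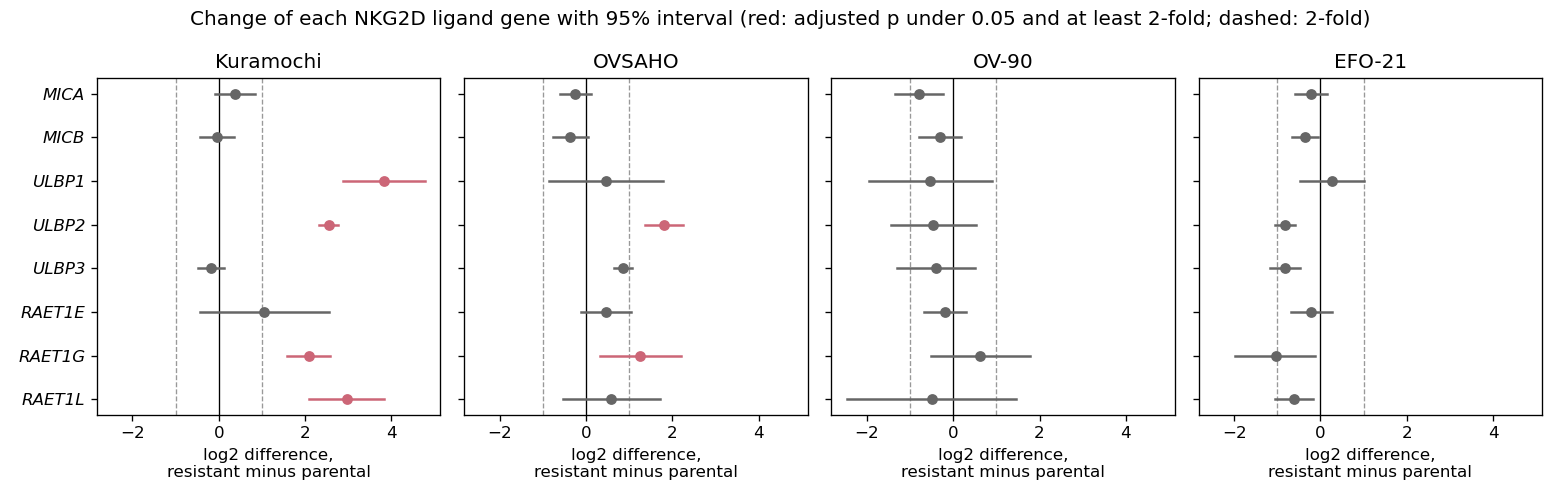
Difference of log2 values, resistant minus parental (x axis), of each member (y axis) in each line, with its 95% interval from limma, red where called and with dashed lines at 2-fold. Kuramochi has 4 called members, OVSAHO has 2, and the points of OV-90 and EFO-21 lie mostly to the left of 0.

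Kuramochi had the most called members, 4 of 8, all higher, where 11.8% of all genes were called higher and 10.6% lower. ULBP2 read 5.52, 5.56 and 5.60 in parental and 8.13, 7.99 and 8.20 in resistant libraries. The groups were far apart against a spread of 0.04 and 0.11 (SD, n = 3 each), with a difference of 2.55 ± 0.09 (SE) on the log2 scale, 5.84-fold (adjusted p = 1.18e-05, limma). RAET1L read 1.81, 2.27 and 3.04 in parental and 5.68, 5.17 and 5.15 in resistant libraries, so its groups did not overlap either. Its difference was 2.96 ± 0.36 (SE, adjusted p = 0.000963, limma), with 1 of the 3 parental libraries in the lowest 10%. RAET1G went from 3.01, 3.56 and 3.40 to 5.51, 5.30 and 5.39, a difference of 2.08 ± 0.21 (SE), 4.22-fold (adjusted p = 0.000440, limma).

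ULBP1 had the largest difference of any member in any line, from 0.01, 1.36 and 1.18 in Kuramochi parental libraries to 4.55, 4.87 and 4.61 in resistant ones. All 3 parental libraries were in the lowest 10%, so the log2 difference of 3.83 ± 0.39 (SE, adjusted p = 0.000482, limma) is not a measured fold change. With it, the Kuramochi resistant line passed from the lowest of the 8 group means of ULBP1 (0.85) to the highest (4.68). Kuramochi resistant libraries also had the highest group mean of ULBP2 (8.11), RAET1G (5.40) and RAET1L (5.33).

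The other Kuramochi members were not called. ULBP3, within the same cluster, read 6.67, 6.62 and 6.47 in parental and 6.49, 6.54 and 6.20 in resistant libraries, a difference of −0.18 (95% interval −0.49 to 0.13). MICB differed by −0.04 (95% interval −0.44 to 0.36), so a 2-fold change lay outside both intervals. MICA went from 4.26, 4.63 and 4.80 to 4.96, 4.84 and 5.04, where the groups did not overlap but the difference of 0.38 (95% interval −0.09 to 0.84, adjusted p = 0.152, limma) was not called. RAET1E was too variable for a statement, with 0.75, 3.04 and 1.83 in parental and 2.42, 2.81 and 3.55 in resistant libraries and a 95% interval from −0.44 to 2.55. Without library 5 its difference was 1.64 (adjusted p = 0.0471, limma), and in a fit of all 23 libraries together it was called at the same difference of 1.06 (adjusted p = 0.0378, limma). RAET1E-AS1, an antisense gene (chr6:150184630-150240643) that overlaps RAET1E and part of RAET1G, read 5.06, 4.56 and 4.79 in parental and 5.76, 5.93 and 6.07 in resistant libraries. It rose (1.12 ± 0.18 SE, adjusted p = 0.00315, limma), and whether the counting kept the strands apart is not given in the sources used here.

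In OVSAHO 2 of 8 members were called, both higher, where 3.93% of all genes were called higher and 3.83% lower. ULBP2 went from 1.60, 1.83 and 1.96 to 3.52, 3.79 and 3.50, with no overlap, a difference of 1.81 ± 0.18 (SE, adjusted p = 0.00126, limma). As 1 parental library was in the lowest 10%, no fold is given. The OVSAHO resistant mean of 3.60 was close to the OV-90 parental mean of 3.61. RAET1G went from 1.89, 1.38 and 2.07, with 1 library in the lowest 10%, to 2.36, 3.68 and 3.07, a difference of 1.26 ± 0.38 (SE, adjusted p = 0.0498, limma). Its groups did not overlap, but the call was at the threshold. It was lost without library 7 (1.31, adjusted p = 0.103), 8 (1.06, adjusted p = 0.135), 9 (1.40, adjusted p = 0.0723), 20 (0.93, adjusted p = 0.113) or 21 (1.24, adjusted p = 0.122, limma).

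ULBP3 differed in OVSAHO by less than 2-fold but with little spread. It read 5.11, 5.18 and 5.19 in parental and 6.06, 6.04 and 5.95 in resistant libraries, with no overlap and a difference of 0.86 ± 0.08 (SE), 1.81-fold (adjusted p = 0.00125, limma). RAET1K, a pseudogene of the cluster that shares 150-base stretches with ULBP3, read 4.02, 4.27 and 4.09 in parental and 5.63, 5.28 and 5.40 in resistant OVSAHO libraries. ULBP1, RAET1E and RAET1L had differences of 0.46, 0.46 and 0.59 with intervals that include 0, and all 6 RAET1E libraries were in the lowest 10%. For RAET1L 3 of 3 parental and 2 of 3 resistant libraries lay there as well, and for ULBP1 2 of 3 and 1 of 3. MICA, at 3.49, 3.39 and 3.61 against 3.24, 3.26 and 3.25, and MICB, at 2.60, 2.43 and 2.22 against 2.08, 1.98 and 2.10, were lower in each resistant library than in any parental one, but neither difference was called (−0.25, adjusted p = 0.240, and −0.36, adjusted p = 0.144, limma).

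In EFO-21 no member was called by limma, where 7.11% of all genes were called higher and 7.15% lower. At an unadjusted p under 0.05 there were 5 members, all lower, and an ordinary linear model called 0. ULBP2 read 7.18, 6.95 and 6.90 in parental and 6.27, 6.09 and 6.20 in resistant libraries, with no overlap and a difference of −0.82 ± 0.10 (SE, adjusted p = 0.00115). ULBP3, at 6.75, 6.25 and 6.46 against 5.72, 5.71 and 5.55, had a difference of −0.82 ± 0.14 (SE, adjusted p = 0.00469, limma). Both were 1.77-fold lower, short of the 2-fold rule. RAET1L differed by −0.62 ± 0.18 (SE, adjusted p = 0.0316), from 5.26, 5.19 and 4.96 to 4.82, 4.36 and 4.37. RAET1G, at 3.63, 3.12 and 3.67 against 3.02, 2.60 and 1.68, reached 2-fold but missed the p threshold (−1.04 ± 0.38 SE, adjusted p = 0.0643, limma), and without library 22 it was called (−1.34, adjusted p = 0.0367). MICB lay lower in each resistant library, at 4.57, 4.59 and 4.62, than in any parental one (−0.36, adjusted p = 0.0528, limma). The EFO-21 differences depend on scaling. The library median of 15 housekeeping genes shifted by −0.47 between the states of this line, although the median of the differences of those genes was −0.03. With libraries centred on that median the differences of MICA, MICB and RAET1E turned positive (0.25, 0.11 and 0.26, none called). Under the same centring ULBP2 kept a difference of −0.35 (adjusted p = 0.0164), while ULBP3 (−0.35, adjusted p = 0.0591), RAET1L (−0.15, adjusted p = 0.482) and RAET1G (−0.57, adjusted p = 0.203, limma) did not pass the p threshold.

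In OV-90 no member was called by limma either, where 9.50% of all genes were called higher and 6.56% lower. At an unadjusted p under 0.05 there was 1 member, MICA, and an ordinary linear model called 0. MICA read 5.85 and 5.37 in parental and 4.73, 4.93 and 4.76 in resistant libraries, which do not overlap, with a difference of −0.80 ± 0.21 (SE, adjusted p = 0.0441). It was called without parental library 3 (−1.04, adjusted p = 0.0137), and without parental library 2 it missed the p threshold (−0.56, adjusted p = 0.0845, limma). The intervals of the other members were wide in this line, for example −2.46 to 1.45 for RAET1L, whose parental libraries read 1.29 and 3.34, and −1.44 to 0.52 for ULBP2, at 4.12 and 3.10 against 3.26, 2.88 and 3.31. ULBP3 stayed near the bottom, at 1.63 and 2.29 against 1.11, 1.65 and 1.93, and RAET1E was in the lowest 10% of all 5 libraries.

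Groups of a member did not overlap in 5 of 8 cases in Kuramochi, all higher in the resistant libraries, in 5 in OVSAHO (3 higher and 2 lower), in 2 in OV-90 and in 5 in EFO-21, all lower in both of these lines. Among all genes the groups did not overlap, in the order higher and lower, in 28.7% and 30.5% in Kuramochi, 24.6% and 23.7% in OVSAHO, 32.0% and 37.1% in OV-90, and 30.4% and 29.3% in EFO-21. Groups that lie apart are therefore common in this table. The median difference of the 8 members was 1.57 in Kuramochi, 0.53 in OVSAHO, −0.43 in OV-90 and −0.49 in EFO-21, beside medians over all genes of −0.02, 0.00, −0.06 and 0.01.

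The next comparison asked whether the change itself differed between lines, tested as the difference between the resistant-minus-parental changes of each pair of lines in a fit of all 23 libraries. ULBP1 and RAET1L rose more in Kuramochi than in any other line, ULBP2 more in Kuramochi and OVSAHO than in OV-90 and EFO-21, and the change of ULBP3 was higher in OVSAHO than in each of the others. Over the 6 pairs of lines 18 of 48 tests of members were called.

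**Figure D3:**
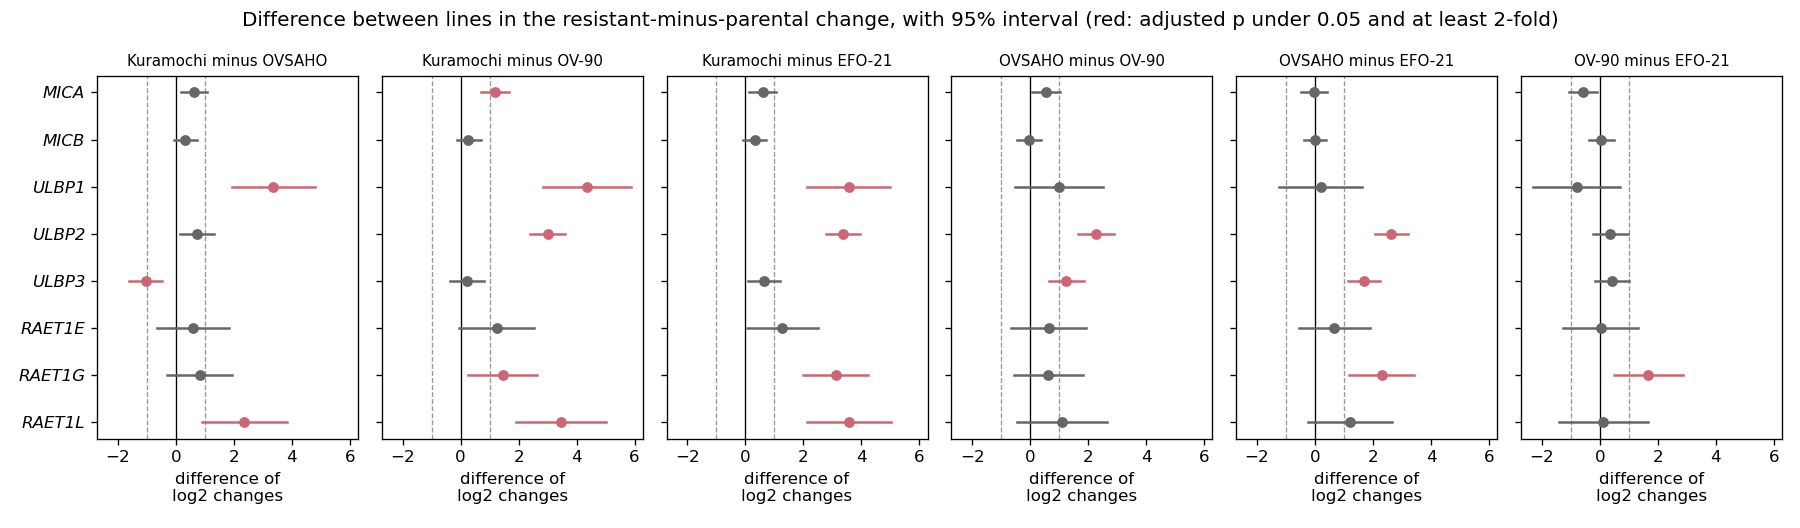
Difference between 2 lines in the resistant-minus-parental log2 change (x axis) of each member (y axis) with its 95% interval from limma, red where called and with dashed lines at 2-fold. ULBP1 and RAET1L are called in the 3 panels with Kuramochi, and MICB lies near 0 in all 6.

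For ULBP1 the change in Kuramochi exceeded that in OVSAHO by 3.36 ± 0.68 (SE), that in OV-90 by 4.36 ± 0.72 and that in EFO-21 by 3.56 ± 0.68. For RAET1L the same differences were 2.37 ± 0.69, 3.46 ± 0.73 and 3.58 ± 0.69. For ULBP2, Kuramochi exceeded OV-90 by 3.01 ± 0.29 and EFO-21 by 3.37 ± 0.27, but OVSAHO by only 0.74 ± 0.27 (adjusted p = 0.0346), which is under 2-fold. OVSAHO in turn exceeded OV-90 by 2.27 ± 0.29 and EFO-21 by 2.63 ± 0.27 for ULBP2. Each of these except the ULBP2 difference between Kuramochi and OVSAHO was called in limma. The fit uses 1 spread per gene for all 8 groups, also where the 2 OV-90 parental libraries spread more. For ULBP2 the SE of 0.29 against OV-90 was thus below the SE of 0.38 of the OV-90 change in its own fit.

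The change of RAET1G was lowest in EFO-21, where it was below that of Kuramochi by 3.12 ± 0.53 (SE), of OVSAHO by 2.30 ± 0.53 and of OV-90 by 1.67 ± 0.56, all called, and Kuramochi exceeded OV-90 by 1.45 ± 0.56 (adjusted p = 0.0356, limma). Kuramochi and OVSAHO were not separated for RAET1G (0.82, 95% interval −0.29 to 1.94), nor were OVSAHO and OV-90 (0.63, 95% interval −0.55 to 1.81). For ULBP3 the change in OVSAHO exceeded that in OV-90 by 1.25 ± 0.28 and in EFO-21 by 1.68 ± 0.27, and Kuramochi lay below OVSAHO (−1.04 ± 0.27 SE, adjusted p = 0.00381, limma). MICA was called in 1 pair, Kuramochi against OV-90 (1.18 ± 0.23 SE, adjusted p = 0.000275, limma). MICB and RAET1E were called in no pair by limma, at differences from −0.05 to 0.33 for MICB and from 0.03 to 1.27 for RAET1E.

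Such differences were common in the whole table. For Kuramochi and OV-90, 5 members were called and 33.8% of all genes, for Kuramochi and EFO-21 4 members and 26.6%, and for Kuramochi and OVSAHO 3 members and 24.3%. For OVSAHO and EFO-21 the counts were 3 members and 15.7%, for OVSAHO and OV-90 2 members and 17.1%, and for OV-90 and EFO-21 1 member and 24.9%.

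Averaged over the 4 lines, 1 member of 8 was called, ULBP1, where 6.82% of all genes were called in either direction. Its average change was 1.01 ± 0.25 (SE, adjusted p = 0.00197, limma), just past 2-fold, and it rests on the Kuramochi change that starts in the lowest 10%. The call was lost without any 1 of libraries 2, 4, 7, 9, 11, 13, 17, 19, 20, 22 or 24, each of which left 0 members called. The averages of ULBP2 (0.77 ± 0.10 SE, adjusted p = 3.77e-06) and RAET1G (0.73 ± 0.19 SE, adjusted p = 0.00357) were past the p threshold of limma but under 2-fold. In Kuramochi, OVSAHO, OV-90 and EFO-21 the changes were 2.55, 1.81, −0.46 and −0.82 for ULBP2. For RAET1G they were 2.08, 1.26, 0.62 and −1.04, so neither average is a rise shared by all lines. MICA and MICB had small negative averages, −0.22 ± 0.08 (SE, adjusted p = 0.0221) and −0.27 ± 0.07 (SE, adjusted p = 0.00252, limma).

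The range of a member over its 8 group means describes how widely it varied. ULBP2 ranged over 6.31 log2 units, from 1.79 in OVSAHO parental to 8.11 in Kuramochi resistant libraries, and 91.4% of all genes had a smaller range. ULBP3 ranged over 5.02, RAET1L over 4.75 and ULBP1 over 3.83, while the median gene ranged over 2.51. MICA, at 2.36, varied less than the median gene, and MICB at 2.90 slightly more. The pooled SD within groups was 0.11 for MICB, 0.16 for MICA, 0.23 for ULBP3 and 0.24 for ULBP2, and 0.47 to 0.63 for RAET1G, RAET1E, ULBP1 and RAET1L. Over the 23 libraries, which share 4 lines, ULBP2 correlated with RAET1L (Pearson's r = 0.90), RAET1E (0.83) and RAET1G (0.75), and MICA with MICB (0.81), as a description only. RAET1L also shares sequence with ULBP2, as given above.

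Genes outside the family with the most similar pattern over the 23 libraries were looked for among the genes whose highest group mean exceeded the median of all gene means, 5.81, which left 16711 or 16712 genes to search. For ULBP2 these were the pseudogene WFDC21P (r = 0.975), the collagen gene COL6A1 (r = 0.969) and AXL, a receptor tyrosine kinase (r = 0.965). For ULBP3 they were the chemokine CCL2 (r = 0.982), FJX1 (r = 0.975) and the phosphate transporter SLC34A2 (r = 0.973). For RAET1L they were FLII (r = 0.937), ATP8A1 (r = 0.932) and VTRNA1-2 (r = 0.932), and for ULBP1 TTC9 (r = 0.909), ESAM-AS1 (r = 0.890) and CAMK2N1 (r = 0.883).

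The genes around the 6q25 cluster were examined because the 6 members there are close neighbours. In EFO-21 most neighbours fell. Of 20 measured genes other than the members that overlap the cluster or lie within 1 Mb of it, 11 were called lower and 2 higher in EFO-21, with a median difference of −1.14, where 7.15% of all genes were called lower. The nearest on the centromeric side were the pseudogene CCT7P1 (1.21, adjusted p = 0.0329), LRP11 (−0.03, adjusted p = 0.770), the protein repair enzyme PCMT1 (−1.50, adjusted p = 3.19e-05) and the nucleoporin NUP43 (−1.13, adjusted p = 0.000104, limma). On the other side the nearest was PPP1R14C (−2.47, adjusted p = 0.000681, limma). The 3 genes that overlap the cluster were not called in EFO-21, with differences of 0.26 for RAET1E-AS1, −0.66 for the pseudogene RAET1K and −0.21 for the pseudogene BTF3P10. In the same line ULBP2, ULBP3 and RAET1L lay lower, and the part of the neighbourhood in those differences was not tested.

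**Figure D4:**
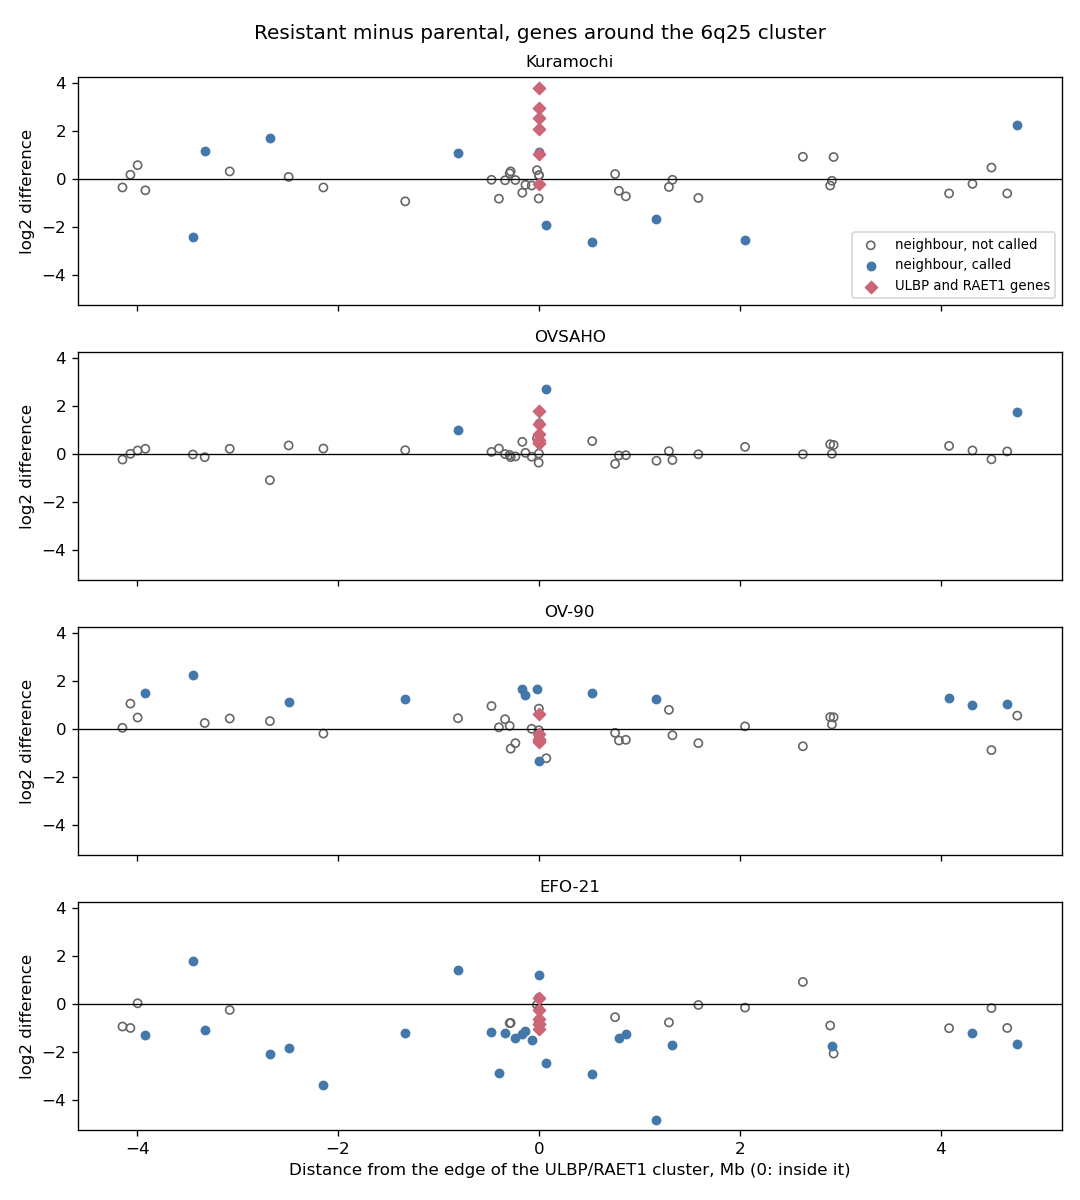
Log2 difference, resistant minus parental (y axis), of genes within 5 Mb of the ULBP/RAET1 cluster against their distance from its edge in Mb (x axis), in one panel for each line, with called neighbours filled, others open and the 6 member genes as red diamonds at 0, which partly hide the other genes that overlap the cluster. In EFO-21 most neighbours lie below 0, and in Kuramochi 4 of the diamonds lie above 2 while most neighbours within 1 Mb lie between −1 and 1.

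The other lines had no such majority. In Kuramochi, where 4 of the 6 cluster members rose, 2 of the 20 neighbours were called higher and 2 lower, with a median of −0.03. RAET1E-AS1 was one of those that rose, while PCMT1 and NUP43 differed by −0.26 and −0.23. In OVSAHO 3 were called higher and 0 lower by limma, with a median of 0.04, among them RAET1K (1.31, adjusted p = 0.00192) and PPP1R14C (2.73, adjusted p = 0.000316, limma). In OV-90 4 were higher and 1 lower, with a median of 0.05. Over all genes, the shares called higher and lower were 11.8% and 10.6% in Kuramochi, 3.93% and 3.83% in OVSAHO, and 9.50% and 6.56% in OV-90. Wider windows, chosen after these values were seen, showed for EFO-21 a median of −1.07 over 11 genes between 1 and 5 Mb on the centromeric side, with 6 called lower, and of −1.0 over 14 genes on the other side, with 5 called lower. Between 5 and 20 Mb the EFO-21 medians were −0.46 over 80 genes and −0.83 over 69 genes. OV-90 had medians of 0.49 and 0.5 between 1 and 5 Mb, with 4 genes called higher and 0 lower on each side. Between 5 and 20 Mb its medians were 0.08 and 0.06. The 1 to 5 Mb medians were 0.1 and −0.22 in Kuramochi and 0.16 and 0.12 in OVSAHO. Around MICA and MICB, 6 of 104 genes within 1 Mb were called higher and 6 lower in EFO-21, with a median of 0.01. In Kuramochi 10 were higher and 8 lower, with a median of 0.03. In OV-90 1 was higher and 5 lower, with a median of −0.32, and in OVSAHO 0 were higher and 3 lower, with a median of −0.18.

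The levels of the receptor gene and of its adaptor differed between the lines. KLRK1, whose value rests on 1 exon feature, ranged from 0.00 to 2.65 in Kuramochi and EFO-21, and was in the lowest 10% of 10 of their 12 libraries. In OV-90 it read 6.05 and 5.90 in parental and 5.23, 6.15 and 5.23 in resistant libraries. In OVSAHO it read 3.22, 3.63 and 2.73 in parental libraries and 1.63, 0.02 and 0.02 in resistant ones, where all 3 were in the lowest 10% (−2.64, adjusted p = 0.0114, limma). HCST was highest in OVSAHO parental libraries, at 7.99, 7.82 and 7.50, and lay above the lowest 10% in every library except the OV-90 resistant ones. It fell in OVSAHO (−1.66, adjusted p = 0.00165), in Kuramochi (−2.13, adjusted p = 0.00217) and in OV-90 (−2.28, adjusted p = 0.0123, limma), in OV-90 to values in the lowest 10%. In EFO-21 the mean of HCST was 3.84 in parental and 4.47 in resistant libraries, and it was not called. The 2 genes belong to a list of 7 measured NK and T cell markers, of which 6 were called lower in OVSAHO, where the library median of the list went from 2.93 to 4.09 in parental libraries to 0.02 to 0.70 in resistant ones. It was 4.52 to 5.88 and 4.41 to 4.92 in OV-90, with 1 called lower. In Kuramochi 2 of the 7 were called lower, and in EFO-21 1 was called higher and 1 lower. The part of other cells in these values was not tested.

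Genes that act on the ligands or sense the damage that induces them were grouped in lists, each counted in full. The share of all genes called was, in the order higher and lower, 11.8% and 10.6% in Kuramochi, 3.93% and 3.83% in OVSAHO, 9.50% and 6.56% in OV-90, and 7.11% and 7.15% in EFO-21, and the counts below are to be read against these shares. Of 18 DNA damage signalling genes, 4 rose and 1 fell in Kuramochi, a total near the share of all genes called there, and 3 rose in OV-90. In OVSAHO and EFO-21 limma called 0, with 11 and 12 genes at an unadjusted p under 0.05. In Kuramochi these were CHEK1, which encodes CHK1, the target of the drug (2.63, adjusted p = 6.25e-06), and the growth arrest genes GADD45B (1.63, adjusted p = 0.000256) and GADD45A (1.32, adjusted p = 5.35e-05, limma) among others. In OV-90 they were MDM2, which restrains p53 (2.07, adjusted p = 0.0211), RRM2B, a ribonucleotide reductase subunit induced by p53 (1.79, adjusted p = 0.0147), and ATM (1.75, adjusted p = 0.0210, limma). The median of the list was 0.03 in Kuramochi and 0.36 in OV-90. The SD of these 3 genes over the 2 OV-90 parental libraries was 0.45 to 0.79.

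Among 29 transcription and RNA regulators known to act on ligand genes, 1 rose and 3 fell in Kuramochi, 2 rose in OVSAHO, 3 rose in OV-90, and 1 rose and 1 fell in EFO-21. With both directions counted, the called genes are a smaller share of this list than of all genes in every line, though only slightly so in OVSAHO. Genes called higher are a larger share of the list than of all genes in OVSAHO and OV-90. JUN, a subunit of AP-1, rose in Kuramochi (1.44, adjusted p = 7.66e-05), where MYCN fell by 2.26 (adjusted p = 0.000793) and E2F2 fell by 1.22 (adjusted p = 0.00146, limma). MYCN rose instead in OVSAHO (1.90, adjusted p = 0.00217) and EFO-21 (2.08, adjusted p = 0.000264, limma). IGF2BP1, an RNA-binding protein, rose in OVSAHO from a low parental mean (1.39, adjusted p = 0.00708), and NFKB1 fell by 1.28 in EFO-21 (adjusted p = 0.000130, limma). In OV-90 DICER1 (1.51, adjusted p = 0.0177), SP1 (1.48, adjusted p = 0.0280) and E2F3 (1.48, adjusted p = 0.0282, limma) rose. Of 10 heat shock genes, HSPA6 (2.01, adjusted p = 0.00163) and HSPB1 (1.06, adjusted p = 0.000817, limma) rose in Kuramochi. Limma called 0 of them in OVSAHO, OV-90 and EFO-21, where 5, 4 and 6 had an unadjusted p under 0.05.

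Among 12 genes of ligand shedding, 3 rose in Kuramochi, 2 rose and 3 fell in OV-90, and 1 rose and 1 fell in EFO-21, the last near the share of all genes. In OVSAHO limma called 0, with 9 at an unadjusted p under 0.05. In Kuramochi these were the metalloproteases MMP2 (1.79, adjusted p = 6.93e-06) and MMP14 (1.48, adjusted p = 2.59e-05) and the inhibitor TIMP2 (2.03, adjusted p = 6.25e-06, limma). MMP9 fell in OV-90 (−2.67, adjusted p = 0.0208) and in EFO-21 (−3.06, adjusted p = 3.98e-05), and TIMP3, an inhibitor of ADAM17, fell in OV-90 (−2.21, adjusted p = 0.0192) and rose in EFO-21 (1.61, adjusted p = 8.20e-05, limma). ADAM9 was among those that rose in OV-90 (1.63, adjusted p = 0.0436, limma). In Kuramochi the called genes were proteases and an inhibitor alike.

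Among 13 measured genes for ligands of other NK receptors or for death receptors, 3 were called in Kuramochi and 2 in EFO-21. Both counts are close to the share of all genes called in those lines. HLA-E, the ligand of the inhibitory NKG2A receptor (1.53, adjusted p = 0.000683), and ICAM1, which binds the integrin LFA-1 (1.27, adjusted p = 2.47e-05), rose in Kuramochi, and NECTIN3 fell by 1.73 (adjusted p = 0.00152, limma). In EFO-21 the death receptor gene FAS fell by 2.85 (adjusted p = 9.87e-06) and ICAM1 fell by 1.29 (adjusted p = 1.76e-05, limma). In OV-90 the death receptor gene TNFRSF10A fell by 1.06 (adjusted p = 0.0330, limma). In OVSAHO limma called 0, with 7 at an unadjusted p under 0.05. Of 12 genes that build, attach or remodel the GPI anchor, PIGL rose in Kuramochi (1.09, adjusted p = 0.00335), and PGAP1 rose in OV-90 (1.59, adjusted p = 0.0201) and EFO-21 (1.27, adjusted p = 0.00415, limma). In OVSAHO limma called 0 of them, with 7 at an unadjusted p under 0.05.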

How the data were processed

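Total RNA of 23 cultures was sequenced as stranded poly(A) libraries, with 3 per group and 2 for OV-90 parental. Alignment by the authors was to GRCh37/hg19 (per the labels and the study's methods), left out exons with few reads, derived 1 value per gene from exon and junction reads, and deposited quantile-normalised log2 values. The table marks 16448 genes as robust linear model values and 5210 as means of log2 exon values, and 20745 (95.8%) of the Gene IDs had a RefSeq symbol. Number of exon features was used only as a description. Columns carry a line, a state and a library number, and 0 columns belonged to other samples. There are no counts, so depth and counting error are unknown, and quantile normalisation hides a shift common to most genes.

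Resistant and parental libraries were compared within each line with limma 3.58.1 in R 4.3.3, with a mean-variance trend, no filter and no pseudocount, two-sided, with Benjamini-Hochberg adjustment across the 21658 genes. Parental pairs came from a fit of the 11 parental libraries, and differences of changes and the average change from a fit of all 23. Each of these fits uses 1 spread per gene for all groups, so contrasts with OV-90 borrow the mostly tighter spread of the other groups. The study's methods name no test for these data. The code was tested on simulated data. All 8 members are named. For each list, at most the 3 called genes with the largest difference in a line are named, and for the 4 members with the widest range the 3 most correlated genes. RAET1K and RAET1E-AS1 were chosen after their values were seen. The members and lists were chosen with earlier results of these data known. Alternatives were no trend, a robust fit, leaving out genes with a mean at or below the 25th percentile, centring on the library median of 15 housekeeping genes, a 1.5-fold threshold, no fold threshold, 1 fit of all libraries, an ordinary linear model, and leaving out each library. Positions came from GENCODE annotation lifted to GRCh37, promoters from RefSeq on GRCh38.p14.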

Additional observations from a re-analysis of the deposited data

Results flagged for a closer look

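The change from parental to resistant cells differed between lines, by limma's test of the difference over all genes, in 18 cases, and in each the value is the difference of 2 log2 changes. Kuramochi against OVSAHO gave 3.36 for ULBP1, 2.37 for RAET1L and −1.04 for ULBP3. Kuramochi against OV-90 gave 4.36 for ULBP1, 3.46 for RAET1L, 3.01 for ULBP2, 1.45 for RAET1G and 1.18 for MICA. Kuramochi against EFO-21 gave 3.58 for RAET1L, 3.56 for ULBP1, 3.37 for ULBP2 and 3.12 for RAET1G. OVSAHO against OV-90 gave 2.27 for ULBP2 and 1.25 for ULBP3, and OVSAHO against EFO-21 gave 2.63 for ULBP2, 2.30 for RAET1G and 1.68 for ULBP3. OV-90 against EFO-21 gave 1.67 for RAET1G, which was called in neither line alone. The pairs share libraries, so the 18 cases are not independent. Groups of 2 or 3 libraries were not tested for single outlying samples.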

How the results depend on the processing

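The Kuramochi calls of ULBP1, ULBP2, RAET1G and RAET1L and the OVSAHO call of ULBP2 held under every alternative that kept the gene in the table and without each library. Leaving out weakly expressed genes removed ULBP1, RAET1E, RAET1G and RAET1L by construction, which left 1 member called in Kuramochi, 1 in OVSAHO, 20 over the parental pairs, 8 over the differences of changes and 0 for the average. RAET1G in OVSAHO was lost without the trend (adjusted p = 0.0602), in a robust fit (0.0532), with housekeeping centring (0.0632) and in an ordinary linear model (0.115), so OVSAHO then had 1 called member. A 1.5-fold threshold and the p threshold alone each called 1 member in OV-90 and 3 in EFO-21, and 4 and 6 for the average. A fit of all 23 libraries called 1 member in EFO-21, RAET1G. Housekeeping centring subtracted shifts of the housekeeping library median of −0.47 in EFO-21 and −0.21 in OV-90, and so raised the differences. The median of the differences of the housekeeping genes was −0.03 in EFO-21 and −0.18 in OV-90. Centring turned RAET1E in OV-90 to 0.03 and, in EFO-21, MICA to 0.25, MICB to 0.11 and RAET1E to 0.26.

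Without 1 library at a time, called members ranged from 1 to 2 in OVSAHO, 0 to 1 in OV-90, 0 to 1 in EFO-21 and 0 to 1 for the average, and the sign turned in the ranges of ULBP2 in OV-90 (−0.97 to 0.05), RAET1L in OV-90 (−1.53 to 0.52) and MICB in Kuramochi (−0.09 to 0.01). Without OV-90 parental library 2 or 3, 1 parental library is left and is assumed to vary like the resistant group. No paired analysis was possible because the columns carry no replicate number. Depth is unknown, so low values such as ULBP1 in Kuramochi parental cells could not be told from absence, and MICA and MICB values rest on more exon features than annotated exons.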
